A study of Mus musculus with 4 samples.

Results

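The genes described are 10 that carry glucose into a cell, lactate and other monocarboxylates across its surface, or pyruvate into its mitochondria, together with the chaperone of the lactate carriers. They were taken by symbol from a table of 35798 named genes, and all 10 were present: Slc2a1, Slc2a3, Slc2a6 and Slc2a8 of the glucose transporter (GLUT) family, Slc16a1, Slc16a3 and Slc16a6 of the monocarboxylate transporter (MCT) family, Mpc1 and Mpc2 of the mitochondrial pyruvate carrier, and Bsg. Their RNA was measured in NK cells that bear Ly49H, taken from wild-type donors with the CD45.1 allele and from TNFR2 KO donors with CD45.2. The donor cells had been placed together in NSG mice, which were infected with murine cytomegalovirus (MCMV) and whose spleens were taken on D3.5. Each genotype had 2 libraries. The labels tie replicate 1 of either genotype to the same pooled spleens of 3 NSG mice, and likewise replicate 2, but whether the replicates came from separate mice is not stated. Every donor cell thus shared the host, the infection and the time with its counterpart of the other genotype, while the CD45 allele and the sort gate went with the genotype, so that the 3 cannot be told apart. NSG mice lack T, B and NK cells of their own but keep myeloid cells, and the knockout donors were mice whose deletion was not limited to NK cells. The text of the study speaks of duplicates of a single experiment, so p-values measure the spread between these libraries, which may be technical. Expression is given as CPM, counts scaled to a common library size with edgeR's TMM factors, in replicates 1 and 2 in turn. Tnfrsf1b, which encodes TNFR2, measured 264.7 and 268.6 CPM in wild-type and 55.1 and 58.6 CPM in TNFR2 KO, so that it was lower in both KO libraries but not absent.

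Glucose enters lymphocytes through facilitative carriers of the GLUT family and is broken down to pyruvate. Pyruvate is then either reduced to lactate, which leaves the cell through proton-coupled MCT carriers, or passes the inner mitochondrial membrane through a carrier built from MPC1 and MPC2. NK cells that are activated by virus or cytokines are known to raise glucose uptake and glycolysis, and the study asked whether TNFR2 takes part in this.

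Of the 10 genes, 3 were lower and 1 was higher in the TNFR2 KO libraries. These are values of bulk sorted samples, in which markers of other cell types also differed by genotype, as described further on. Slc2a6, which encodes GLUT6, fell by 74.6%. Of the lactate carriers, Slc16a1 (MCT1) fell by 17.9% and Slc16a3 (MCT4) fell by 22.04%, and Slc2a3 (GLUT3), a high-affinity glucose transporter, rose by 23.1%. With the libraries scaled on NK lineage genes in place of TMM factors, Slc2a3 was lower instead, as described further on. Slc2a1 (GLUT1), Slc2a8, Slc16a6, Mpc1, Mpc2 and Bsg did not pass the test. Changes are log2-fold changes, TNFR2 KO relative to wild-type. A gene passed the test when its p from edgeR's quasi-likelihood method, Benjamini-Hochberg adjusted, was under 0.05 over all 13822 genes that passed the filter on low counts, which all 10 genes did. This was common: 50.4% of the genes tested passed, 26.2% as lower and 24.2% as higher. The further threshold that the study set, a log2-fold change beyond 1 in either direction, was met together with the first by 13.3% of genes, 11.8% as lower and 1.56% as higher. Slc2a6 was the only 1 of the 10 genes past both thresholds, in edgeR's test and in DESeq2. The 10 genes had a median log2-fold change of 0.03, against -0.0028 for all genes tested.

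The promoters of the 3 genes that were lower are shown because these genes moved the same way. They are the 250 bases before the RefSeq start site on GRCm38.p6, 5′ to 3′ on the strand of the gene, with capitals for ACGTG, the core to which hypoxia-inducible factors bind, read on both strands. RefSeq gave promoters for 7 of the 10 genes. The windows are chr2:27027999-27028248 on the minus strand for Slc2a6, chr3:104638414-104638663 on the plus strand for Slc16a1 and chr11:120948817-120949066 on the plus strand for Slc16a3.
Slc2a6: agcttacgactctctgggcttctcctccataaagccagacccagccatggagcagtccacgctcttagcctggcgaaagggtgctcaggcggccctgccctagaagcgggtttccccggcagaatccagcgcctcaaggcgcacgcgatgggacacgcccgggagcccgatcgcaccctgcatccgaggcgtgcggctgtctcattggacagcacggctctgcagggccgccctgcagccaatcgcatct
Slc16a1: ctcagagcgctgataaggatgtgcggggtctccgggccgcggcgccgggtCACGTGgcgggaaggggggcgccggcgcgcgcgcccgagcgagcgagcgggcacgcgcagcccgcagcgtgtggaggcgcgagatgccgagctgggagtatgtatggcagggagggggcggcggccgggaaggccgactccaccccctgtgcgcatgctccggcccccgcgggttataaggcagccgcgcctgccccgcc
Slc16a3: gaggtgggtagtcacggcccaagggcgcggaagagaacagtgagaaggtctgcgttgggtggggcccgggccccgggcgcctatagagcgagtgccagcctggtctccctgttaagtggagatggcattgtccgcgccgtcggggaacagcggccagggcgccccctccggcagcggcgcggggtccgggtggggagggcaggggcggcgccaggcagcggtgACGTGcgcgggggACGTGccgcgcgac
ACGTG occurred in 16.6% of 32851 promoter windows of this length. The window of Slc16a1 held it on both strands at the same place, as the palindrome CACGTG, the E-box that Myc and its relatives bind, which starts 200 bases before the start site and occurred in 6.02% of windows. That of Slc16a3 held it at 2 places, 27 and 14 bases before the start site, and that of Slc2a6 at none. Slc2a1, which did not pass the test, also held ACGTG, 36 bases before its start site. Matches to the NF-kB consensus, present in 7.25% of windows, were found in none of the 8 windows of the 7 genes. Some windows overlap exons of the same gene in the GENCODE M21 annotation, so they are not wholly upstream of every known transcript. The overlap was 14 bases for Slc16a3, and 0 for Slc2a6 and Slc16a1. It was 34 bases for Slc2a1, 25 for 1 window of Mpc1 and all 250 for Mpc2. These matches describe letters only and do not show binding.

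Slc2a6 is read from the minus strand of chromosome 2 between positions 27021363 and 27027998 of GRCm38 (mm10), the build of all positions given here. Its product GLUT6 is a glucose transporter kept on internal membranes and known from activated macrophages. Its expression was 29.9 and 29.1 CPM in wild-type replicates 1 and 2, from 1133 and 1074 counts, and 7.63 and 7.34 CPM in TNFR2 KO replicates 1 and 2, from 295 and 235 counts. Both wild-type libraries were thus far above both TNFR2 KO libraries, and the duplicates lay close together. The log2-fold change was -1.98 (standard error 0.0756, 95% interval -2.14 to -1.81, adjusted p = 4.43e-10 in edgeR's quasi-likelihood test). Leaving out any single library kept it from -1.997 to -1.95.

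Most markers of myeloid cell types moved in the same direction as Slc2a6. Of 24 macrophage or monocyte markers, 22 were lower past both thresholds in edgeR's test and 2 were higher, with a median log2-fold change of -2.98 and a range of -3.67 to 0.78. Their summed level was 3262 to 3299 CPM in the wild-type libraries and 1331 to 1352 CPM in the TNFR2 KO libraries. The most abundant of them in wild-type, Lyz2, which encodes lysozyme, averaged 775 ± 4.41 CPM over the wild-type libraries and 112 ± 2.59 CPM over the knockout libraries (SD, n = 2 per genotype). The fall in Slc2a6 was smaller than the median of these markers. Tested neutrophil or granulocyte precursor markers were lower in 14 of 14 cases, with sums of 1025 to 1043 CPM against 101 to 105 CPM. Mast cell or basophil markers were lower in 8 of 9 and higher in 1, which was past both thresholds at 1.69. Their sums were 1216 to 1219 CPM against 97.0 to 97.5 CPM. The most abundant of these were Mpo and Prss34. Of the markers in the table, 0 were without counts in every library. The part of such cells in the change of Slc2a6 was not tested, and in a bulk sample fewer cells of a type and less RNA per cell cannot be told apart.

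The other marker lists describe the sort further. All 20 NK cell markers were higher in TNFR2 KO under TMM, 5 of them past both thresholds, with a median log2-fold change of 0.82 and sums of 18357 to 18417 CPM in wild-type and 32955 to 33319 CPM in TNFR2 KO. Gzma, which encodes granzyme A, was the most abundant, at 5805 ± 37.0 and 12263 ± 174 CPM (SD, n = 2 each). Dendritic cell or class II markers, led by Cd74, were lower in 5 and higher in 1 of 10 tested genes, erythroid markers, led by Hba-a1, were lower in 9 of 9, and megakaryocyte or platelet markers, led by Itga2b, were lower in 5 of 6. T cell markers were lower in 5 and higher in 2 of 9, B cell markers lower in 1 and higher in 1 of 2, and stromal or endothelial markers lower in 3 and higher in 1 of 6. Cd4, Ighm and Pecam1 were the most abundant of these last lists.

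**Figure D1:**
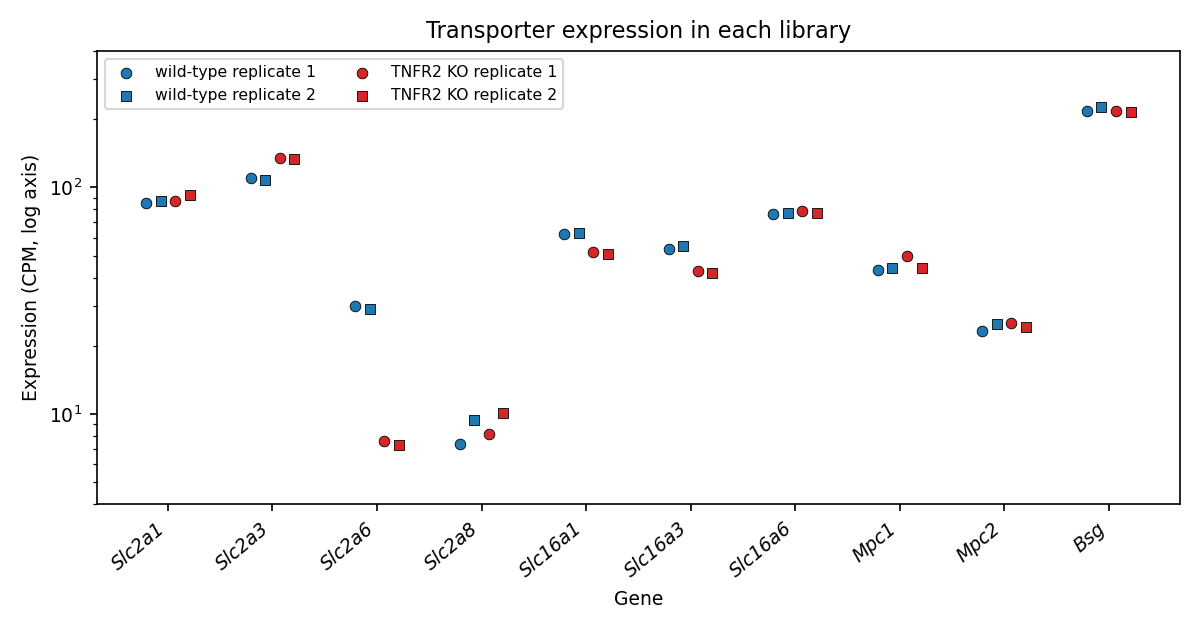
Expression of each transporter gene in the 4 libraries, in CPM on a log axis; circles are replicate 1 and squares replicate 2, blue for wild-type and red for TNFR2 KO. Slc2a6 lies at 29.1 to 29.9 CPM in wild-type and 7.34 to 7.63 CPM in TNFR2 KO, while the points of Slc2a1, Slc2a8, Slc16a6, Mpc1 and Mpc2 overlap between genotypes.

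Among the glucose carriers of the cell surface, Slc2a3 differed between genotypes and Slc2a1 did not pass the test. Slc2a3 is encoded on chromosome 6 (minus strand, 122727809 to 122801640). It was read at 109.5 and 107.7 CPM in wild-type and 134.3 and 133.0 CPM in TNFR2 KO. Both TNFR2 KO libraries were above both wild-type libraries. The change on the log2 scale was 0.30 (standard error 0.0318, 95% interval 0.23 to 0.37, adjusted p = 6.91e-06 in edgeR's quasi-likelihood test), and scaling on NK lineage genes turned it to -0.45. NK cell markers rose with Slc2a3 under TMM, by a median of 0.82, and their part in its change was not tested.

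Slc2a1, at chromosome 4 (plus strand, 119108711 to 119137983), encodes GLUT1, the carrier that many cells use for basal glucose uptake and that growth signals raise in lymphocytes. It measured 84.8 and 87.2 CPM in wild-type and 86.8 and 92.5 CPM in TNFR2 KO. The genotypes overlapped, because wild-type replicate 2 lay above TNFR2 KO replicate 1. The 95% interval of its log2-fold change ran from -0.03 to 0.15, or from a fall of 2.09% to a rise of 10.7% (adjusted p = 0.262 in edgeR's test). Without TNFR2 KO replicate 1 the change was 0.11 with an adjusted p of 0.0408. That fit leaves 1 knockout library, which is assumed to vary like the wild-type libraries, so its p does not carry the spread between knockout libraries.

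Slc2a8, at chromosome 2 (minus strand, 32972990 to 32982083), encodes GLUT8, which is held on internal membranes. It had the fewest CPM of the 10 genes in wild-type, at 7.38 and 9.39 CPM, and measured 8.14 and 10.1 CPM in TNFR2 KO. Replicate 1 was below replicate 2 in both genotypes, and the genotypes overlapped. Its log2-fold change of 0.12 had the widest interval of the 10, from -0.20 to 0.44 (adjusted p = 0.526 in edgeR's test), and turned to -0.03 without wild-type replicate 1, to -0.04 without TNFR2 KO replicate 2, while NK lineage scaling put it at -0.63.

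Slc16a1 and Slc16a3 encode the main lactate carriers of lymphocytes. MCT1 moves lactate in either direction and MCT4, a target of hypoxia signalling, mainly exports it from glycolytic cells. Slc16a1 is encoded on chromosome 3 (plus strand, 104638668 to 104658462) and measured 62.5 and 62.7 CPM in wild-type and 51.8 and 50.9 CPM in TNFR2 KO. Slc16a3 is encoded on chromosome 11 (plus strand, 120948480 to 120960868) and measured 53.4 and 55.2 CPM in wild-type and 42.6 and 42.0 CPM in TNFR2 KO. For each gene, both wild-type libraries were above both TNFR2 KO libraries. On the log2 scale Slc16a1 changed by -0.29 (standard error 0.0417, 95% interval -0.38 to -0.19, adjusted p = 0.000108). Slc16a3 changed by -0.36 (standard error 0.0458, 95% interval -0.46 to -0.26, adjusted p = 3.48e-05), both in edgeR's quasi-likelihood test. Leaving out any single library kept Slc16a1 from -0.29 to -0.27 and Slc16a3 from -0.37 to -0.33. These falls are small beside those of the myeloid markers given above, and the part of myeloid cells in them was not tested.

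Slc16a6 encodes MCT7, a relative of the lactate carriers whose substrates are less well known, and is encoded on chromosome 11 (minus strand, 109450855 to 109473598). It measured 76.2 and 77.2 CPM in wild-type and 78.8 and 77.03 CPM in TNFR2 KO. The genotypes overlapped, and the log2-fold change of 0.02 had a 95% interval of -0.06 to 0.11 (adjusted p = 0.641 in edgeR's test). Scaling by library size alone turned it to -0.04, and it moved to -0.01 with the filter at 10 CPM, while NK lineage scaling put it at -0.73. Kallisto matches reads by stretches of 31 bases, and 20.9% of those of Slc16a6 are found in Amz2 too, so its count is less certain.

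Bsg encodes basigin (CD147), the membrane protein that MCT1 and MCT4 need to reach the cell surface, and is encoded on chromosome 10 (plus strand, 79704491 to 79711969). It had the most CPM of the 10 genes, at 217.5 and 225.4 CPM in wild-type and 216.8 and 215.7 CPM in TNFR2 KO. The libraries did not overlap, but only just, since wild-type replicate 1 lay less than 1 CPM above TNFR2 KO replicate 1. The log2-fold change was -0.03, with a 95% interval of -0.10 to 0.03 (adjusted p = 0.357 in edgeR's test), and 0.00056 without wild-type replicate 2. It passed the test as lower with library size alone as scaling (-0.09, adjusted p = 0.0161), with the filter at 10 CPM (-0.07, adjusted p = 0.0425) and with scaling on NK lineage genes (-0.79, adjusted p = 7.85e-10). Counting Bsg, 5 of the 10 genes had genotypes that did not overlap, against 74% of all genes tested.

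Mpc1 and Mpc2 encode the partners of the mitochondrial pyruvate carrier, which work together in 1 complex. Mpc1 is encoded on chromosome 17 (plus strand, 8282904 to 8297661) and measured 43.2 and 44.2 CPM in wild-type and 49.9 and 43.9 CPM in TNFR2 KO. Mpc2 is encoded on chromosome 1 (plus strand, 165460637 to 165481214) and measured 23.3 and 24.8 CPM in wild-type and 25.2 and 24.2 CPM in TNFR2 KO. For both genes the genotypes overlapped. The log2-fold change of Mpc1 was 0.10 (95% interval -0.03 to 0.24, adjusted p = 0.172) and that of Mpc2 was 0.04 (95% interval -0.10 to 0.18, adjusted p = 0.635), both in edgeR's test. Without TNFR2 KO replicate 2, Mpc1 was at 0.20 with an adjusted p of 0.00638, under the same assumption about a lone knockout library, while the knockout libraries themselves differed more than the wild-type ones. With scaling on NK lineage genes they turned to -0.65 and -0.71, and Mpc2 also went to -0.02 under scaling by library size alone. Mpc1 shares 30.8% of its 31-base stretches with other genes, 12.6% with the pseudogene Mpc1-ps, which makes its count less certain.

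**Figure D2:**
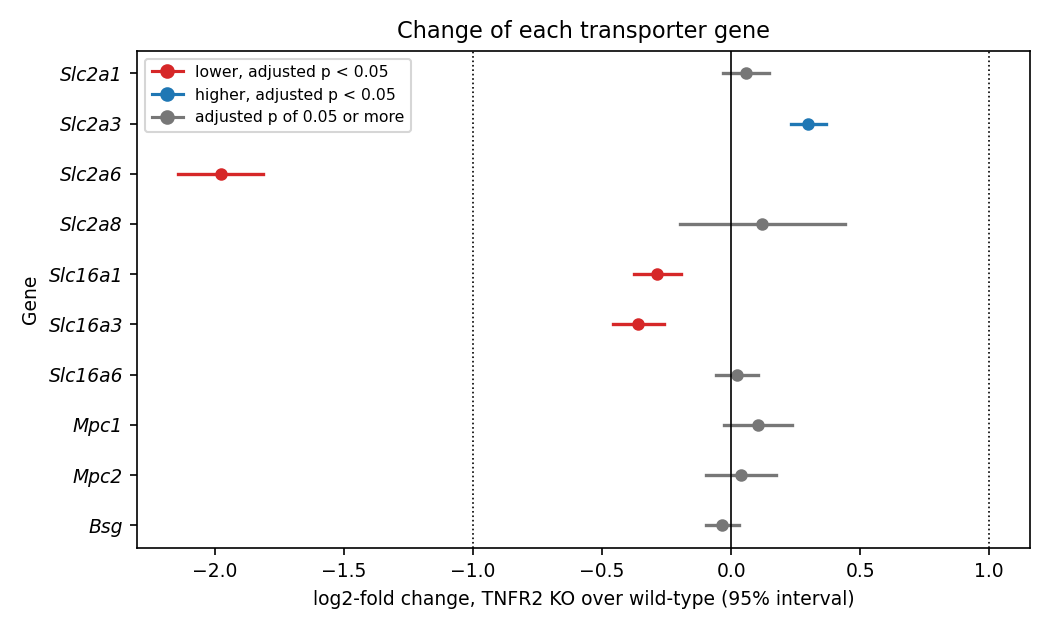
Change in each transporter gene on the log2 scale, TNFR2 KO relative to wild-type, with its 95% interval from edgeR's fit, on a linear axis; dotted lines mark a change of 1 in either direction. Slc2a6 at -1.98 lies beyond -1, Slc16a1, Slc16a3 and Slc2a3 lie between the dotted lines with intervals clear of 0, and the intervals of the other genes include 0. Slc2a3 turns to -0.45 with scaling on NK lineage genes.

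**Figure D3:**
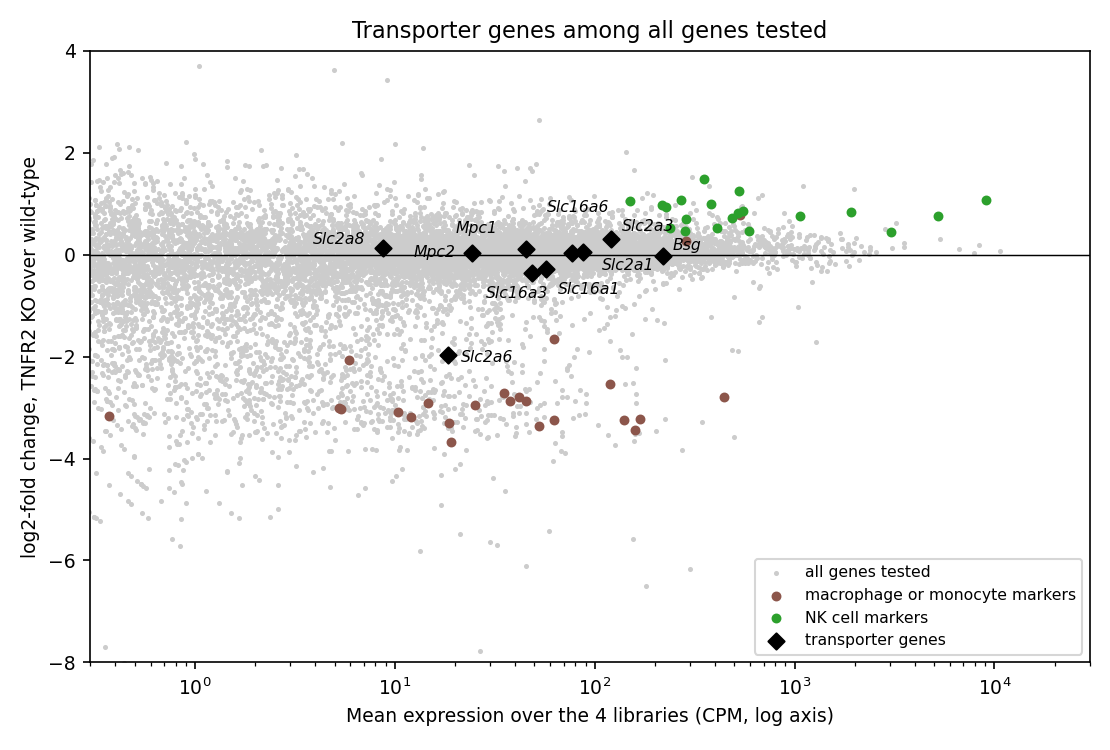
The log2-fold change against mean expression over the 4 libraries (log axis) for all 13822 genes tested, of which 420 lie outside the axes, with the transporter genes as black diamonds, macrophage or monocyte markers in brown and NK cell markers in green. Slc2a6 at -1.98 lies above most of the macrophage markers, whose median is -2.98, and the other transporter genes lie between -0.36 and 0.30.

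To set the genes beside each other, CPM was divided by the length in kilobases of the longest coding transcript in GENCODE M21. On this scale of level per length, Bsg led in wild-type with 143 and 148 CPM per kilobase, followed by Mpc1 with 45.0 and 46.0. Slc2a3 (27.2 to 27.7), Slc2a1 (26.03 to 26.7) and Mpc2 (22.7 to 24.2) came next, then Slc16a6 (18.1 to 18.3), Slc16a1 (14.1 to 14.2), Slc2a6 (13.6 to 13.97), Slc16a3 (12.3 to 12.7) and Slc2a8 (3.50 to 4.45 CPM per kilobase). The ranges of neighbours did not overlap, but Slc2a3 and Slc2a1, and likewise Slc16a1 and Slc2a6, were nearly level. The order depends on the lengths. With the shortest coding transcript in place of the longest, the wild-type mean was 32.6 in place of 18.2 CPM per kilobase for Slc16a6, above Slc2a3, and 23.9 in place of 12.5 for Slc16a3. In TNFR2 KO the order was the same except for Slc2a6. It went from the eighth place to the last, at 3.43 to 3.57 CPM per kilobase, below Slc2a8 at 3.86 to 4.81.

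Ratios between genes within a library do not depend on how libraries are scaled. The ratio of Slc2a3 to Slc2a1 counts was 1.29 and 1.24 in wild-type and 1.55 and 1.44 in TNFR2 KO. Both TNFR2 KO libraries were higher, by 0.24 on the log2 scale. The counts of Slc2a1 plus Slc2a3 were 5.22 and 5.06 times those of Slc2a6 plus Slc2a8 in wild-type and 14.02 and 12.9 times in TNFR2 KO, a log2 difference of 1.39. The 2 lactate carriers kept nearly the same ratio: Slc16a3 to Slc16a1 was 0.855 and 0.880 in wild-type and 0.823 and 0.825 in TNFR2 KO, a log2 difference of -0.07. Bsg was higher relative to them, with a ratio of Bsg to Slc16a1 plus Slc16a3 of 1.88 and 1.91 in wild-type and 2.30 and 2.32 in TNFR2 KO, a log2 difference of 0.29. The ratio of Mpc1 to Mpc2 was 1.86 and 1.78 in wild-type and 1.98 and 1.81 in TNFR2 KO, where the genotypes overlapped. An exact two-sided permutation test gave p = 0.333 for the 4 ratios without overlap, which is the smallest p that 2 libraries against 2 allow, and p = 0.667 for Mpc1 to Mpc2. This test cannot reach 0.05 with so few libraries, and the ratios are given as a description.

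**Figure D4:**
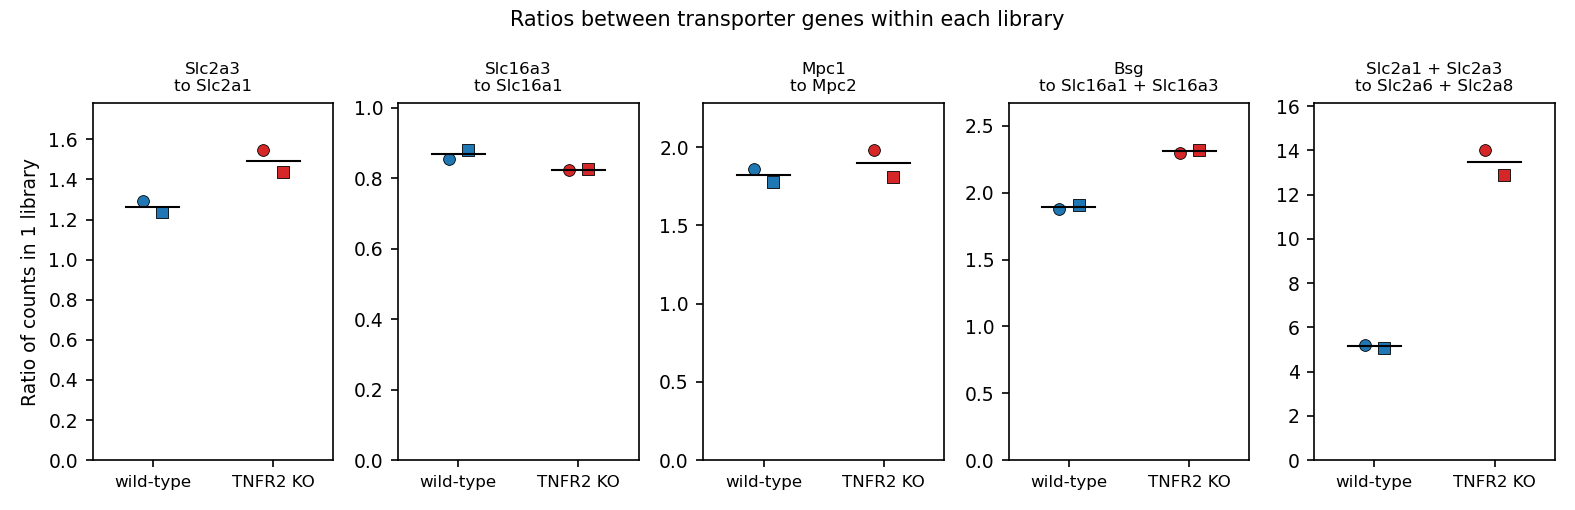
Ratios of counts between transporter genes within each library, on linear axes that start at 0; circles are replicate 1, squares replicate 2 and bars the mean of each genotype. Slc2a1 plus Slc2a3 to Slc2a6 plus Slc2a8 goes from 5.06 to 5.22 in wild-type up to 12.9 to 14.02 in TNFR2 KO, while Mpc1 to Mpc2 overlaps between genotypes.

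The direction of several genes depended on what the libraries were scaled to. With scaling on 30 NK lineage genes, 29 of which were higher in TNFR2 KO under TMM, the median over all genes tested moved to -0.75. All 10 genes then passed the test as lower in edgeR's fit, and so did 11904 of the 13822 genes tested. Slc2a6, Slc16a3 and Slc16a1 were past both thresholds at -2.73, -1.11 and -1.04, or 1.97, 0.36 and 0.28 below the median of all genes. Slc2a3 at -0.45 lay 0.30 above that median, and Slc2a1 at -0.69 lay 0.06 above it. A change of scaling moves every gene by nearly the same amount, so distances from the median of all genes stay nearly as under TMM by construction. The sign of Slc2a3, Slc2a1, Slc2a8, Slc16a6, Mpc1 and Mpc2 differed from that under TMM.

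**Figure D5:**
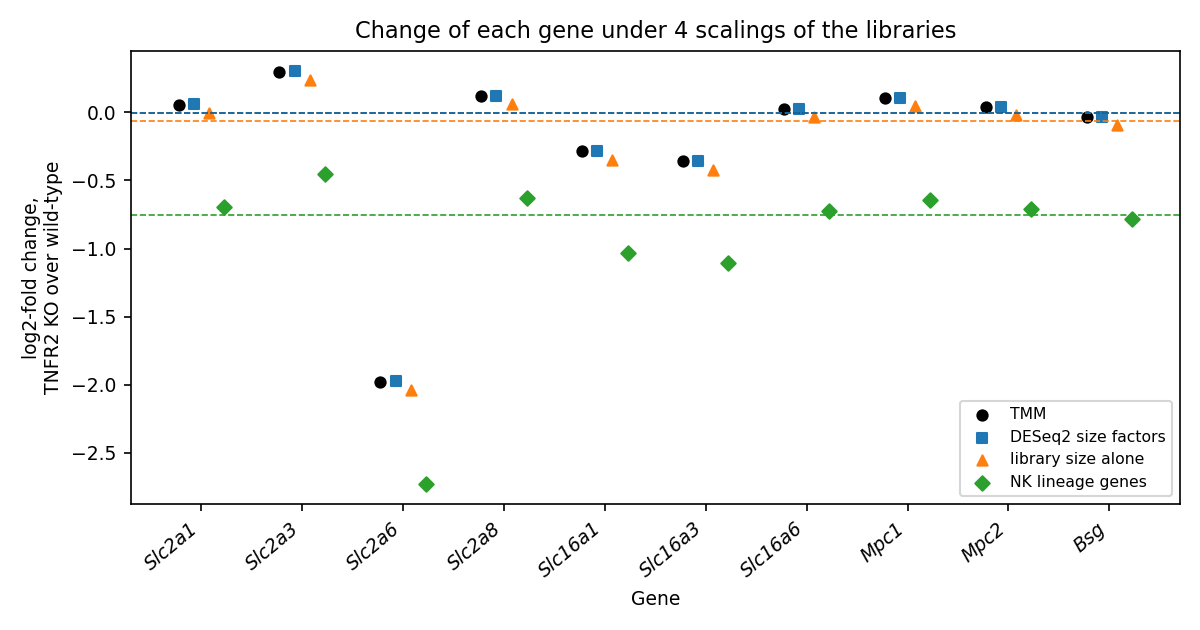
The log2-fold change of each transporter gene under 4 scalings of the libraries (TMM, DESeq2 size factors, library size alone and NK lineage genes), with dashed lines for the median of all genes tested under each. The points under NK lineage scaling, with a median of all genes at -0.75, are all below 0, including Slc2a3 at -0.45, which is at 0.30 under TMM.

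Genes with profiles most like a transporter were sought among the genes whose mean was 10 CPM or more, by the distance between log2(CPM) values centred over the 4 libraries. Nearest to Slc2a6 among 8762 genes were Ms4a4c (distance 0.036), Gbp5 (0.048), an interferon-induced GTPase, and Blvrb (0.058), which encodes biliverdin reductase B. Nearest to Bsg, the gene with the most CPM of the 10, were Pdhb (0.0058), a subunit of pyruvate dehydrogenase, Clta (0.0063), a clathrin light chain, and Ptbp1 (0.0077), a splicing regulator. With 4 libraries in 2 groups such nearness mostly reflects a like fold change.

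Of the other members of the GLUT family, 6 of 8 were too low to test, 3 of them without a count in any library. The tested ones, Slc2a9, which encodes a urate carrier, and Slc2a10, did not pass (0 called in edgeR's test and in DESeq2, 0 with an unadjusted p under 0.05). Slc2a9 measured 7.83 and 6.05 CPM in wild-type and 7.60 and 7.18 CPM in TNFR2 KO. Of 13 further monocarboxylate carriers 5 were tested, and 3 of these were lower past both thresholds and 0 higher. Slc16a7 encodes MCT2, a high-affinity carrier of pyruvate and lactate. It measured 3.22 and 3.42 CPM in wild-type, and the knockout libraries had 0.517 and 0.344 CPM (log2-fold change -2.92, adjusted p = 2.89e-06 in edgeR's test). Slc16a10, which carries aromatic amino acids and was the most abundant, went from 25.0 and 26.6 CPM to 11.8 and 12.6 CPM (-1.08), and Slc16a9 from 2.29 and 2.12 CPM to 0.259 and 0.375 CPM (-2.80). The 4 GLUT and MCT genes past both thresholds, Slc2a6 among them, were each below 30 CPM in wild-type. The part of myeloid cells in their falls was not tested.

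Among 10 other carriers of sugars and sugar phosphates, 2 of the 6 tested were lower and 2 higher. In edgeR's test and in DESeq2, 0 were past both thresholds. An unadjusted p under 0.05 in edgeR's test was reached by 5 of the 6, against 7696 of all 13822 genes tested. The most abundant, Slc37a1, a carrier of glucose 6-phosphate, measured 61.5 and 63.6 CPM in wild-type and 48.7 and 46.0 CPM in TNFR2 KO (log2-fold change -0.40, adjusted p = 1.54e-05). Of 10 chaperones and regulators of transporter trafficking, 5 were lower and 3 higher. Emb encodes embigin, the partner of MCT carriers that can stand in for basigin. It measured 72.0 and 75.6 CPM in wild-type and 31.4 and 31.3 CPM in TNFR2 KO (log2-fold change -1.23, standard error 0.047, adjusted p = 4.34e-10 in edgeR's test). Unlike Bsg, Emb was thus past both thresholds. The part of myeloid cells in the changes of this list was not tested. Tbc1d4, a regulator of GLUT trafficking, and Rab4a, a GTPase of recycling endosomes, were lower at -1.56 and -1.16, from means of 9.43 and 4.71 CPM in wild-type. Txnip, the most abundant of this list, encodes a protein that removes GLUT1 from the cell surface, and it measured 208.5 and 206.4 CPM in wild-type and 275.6 and 277.2 CPM in TNFR2 KO. Its log2-fold change was 0.41 under TMM (adjusted p = 5.80e-08 in edgeR's test). With scaling on NK lineage genes in place of TMM, no gene of this list, Txnip included, passed as higher.

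Enzymes at both ends of the path were read as lists. All 4 tested genes of glucose phosphorylation were lower, among them Hk3 (-3.15) and Hk2 (-1.35) past both thresholds and Hk1, the most abundant, at -0.13. The 24 macrophage or monocyte markers had a median of -2.98, and the part of myeloid cells in the changes of these lists was not tested. Of 9 tested lactate and pyruvate enzymes, 5 were lower and 1 higher. Me1, which makes pyruvate from malate, was past both thresholds at -1.15 from 2.19 and 1.61 CPM, and Pkm, the most abundant, was at -0.21. Of 9 outer membrane channels and inner membrane carriers, 5 were lower and 1 higher, with 0 past both thresholds in edgeR's test and in DESeq2 and 6 at an unadjusted p under 0.05, and Vdac2, the most abundant, was at -0.27. The pyruvate dehydrogenase complex and its kinases and phosphatases had 3 lower and 3 higher of 11 tested genes, again with 0 past both thresholds in either tool. Of these 11 genes, 7 had an unadjusted p under 0.05 in edgeR's test, against 7696 of all 13822 genes tested. By adjusted p alone DESeq2 called 1 gene of the pyruvate dehydrogenase list and 3 of the channels and carriers, against 6 in each list by edgeR. Over all genes tested DESeq2 called 39.2% and edgeR 50.4%. Pdha1, the most abundant gene of the pyruvate dehydrogenase list, had a log2-fold change of -0.03 that did not pass the test. Of 8 tested transcription factors known to act on these carriers, 4 were lower and 2 higher. Hif1a, the most abundant, was at -0.47, and Ppargc1a passed both thresholds as higher in edgeR's test at 1.61, from 0.174 and 0.252 CPM in wild-type, but not in DESeq2 (adjusted p = 0.0919). The medians of these lists were -0.90 for glucose phosphorylation, -0.35 for lactate and pyruvate enzymes, -0.17 for channels and carriers, -0.03 for the pyruvate dehydrogenase list and -0.21 for transcription factors, against -0.0028 for all genes tested. Under scaling on NK lineage genes, 59 of the 64 tested genes of these 9 lists passed the test, all as lower. Of all 13822 genes tested, 11904 passed as lower and 162 as higher under this scaling.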

How the data were processed

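RNA-seq was made from 4 libraries of sorted Ly49H+ NK cells, grouped by their labels into wild-type and TNFR2 KO. The authors trimmed 100 bp paired-end reads of poly-A enriched, stranded libraries with Trimmomatic (version 1.4 in the submitters' processing notes), assigned them to mm10 transcripts with Kallisto 0.46.1 and combined transcripts into genes with Tximport. The deposited values are expected counts (estimated counts) per gene symbol. Which transcript annotation served, and whether Tximport scaled the counts, was not given in the sources used here. Totals were 32713256 to 39543650 counts per library, and a row without a gene name, 0.056% to 0.073% of counts, was left out. Replicates differed by more than sampling noise, the chi-square averaging 3.27 per gene in wild-type and 3.47 in TNFR2 KO, where noise alone gives about 1.

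Counts were rounded to whole numbers, filtered with filterByExpr and tested with edgeR 4.0.16 in R 4.3.3 (TMM factors, genotype as the only term). The biological coefficient of variation was 3.33%, so small changes can pass. The steps were tested on simulated data in which as many genes were raised as lowered. This did not test the scaling where large falls outnumber large rises, as they do here. Alternatives were other scalings, DESeq2 1.42.0, other filters, the replicate block and each library left out. Same-numbered libraries come from the same spleens per the labels, so the numbers pair them. After subtraction of each genotype's mean, libraries of the same number correlated at 0.049 over all genes tested and at 0.149 over the 8763 genes with a mean of 10 CPM or more. Positions and lengths come from GENCODE M21 on GRCm38, which matched all 10 genes, and promoters from RefSeq. The genes and lists were chosen with earlier results of these data known. The rule for named genes took the 10 genes, Tnfrsf1b, and from each other list the most abundant gene (by CPM) and those past both thresholds. Slc2a10 was named after its values were seen. Plots were drawn with matplotlib 3.10.9 under Python 3.11.15.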

Additional observations from a re-analysis of the deposited data

How the results depend on the processing

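Scaling on NK lineage genes was the setting that moved the results most. It raised the number of transporter genes that passed the test from 4 to 10 and the number past both thresholds from 1 to 3, and put their median log2-fold change at -0.72 in place of 0.03, while library size alone put it at -0.029. Under NK lineage scaling the direction turned for Slc2a1 (-0.69), Slc2a3 (-0.45), Slc2a8 (-0.63), Slc16a6 (-0.73), Mpc1 (-0.65) and Mpc2 (-0.71). Library size alone turned Slc2a1 (-0.0028), Slc16a6 (-0.037) and Mpc2 (-0.021), and the filter at a mean of at least 10 CPM turned Slc16a6 (-0.012). Each library was also left out in turn. These fits assume that the lone library of a genotype varies like the pair of the other. The median log2-fold change of the 10 genes then ranged from -0.02 to 0.06, Slc2a8 from -0.036 to 0.31 and Bsg from -0.052 to 0.00056. The replicate block, in which the pool number pairs the libraries, gave 4 genes past the test and 1 past both thresholds and changed no call for the 10 genes. Slc2a6, Slc16a1 and Slc16a3 kept their direction under all 11 alternatives, and their call by adjusted p under those that kept every library. NK lineage scaling put the median of all genes at -0.75, so genes already lower were bound to stay lower under it. Over the other lists, 43 of 64 tested genes passed the test in the fit reported, where 50.4% of all genes did. In DESeq2 33 of 64 passed, against 39.2% of all genes. With the filter at 10 CPM 33 of 47 passed, against 56.9% of all genes. Under NK lineage scaling 59 of 64 passed, against 87.3% of all genes. Over all genes, 1842 passed both thresholds in the fit reported, 480 of the 8765 genes left by the filter at 10 CPM, a smaller set by construction, and 3564 as lower with 33 as higher under NK lineage scaling. With 2 libraries per genotype, changes of the size seen for Slc2a8, at under 11 CPM, were not detectable.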
